A study of Homo sapiens with 12 samples.

Results

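The MYC, MAX and MXD network is a set of dimerising transcription factors that compete for the same partner and the same DNA element. It was read here as 10 genes, MYC, MYCN, MAX, MLX, MXD1, MXD3, MXD4, MXI1, MNT and MGA, with every probe that the platform annotation gives them by current or older symbol. The genes were chosen by name, with earlier results of these data known. They hold 20 of the 47323 probes on the array. A total of 15 of the 20 probes, from 9 of the 10 genes, passed a filter on low values and were tested. Both MYCN probes, 2 MXI1 probes and 1 MGA probe did not pass and are given as values only.

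MYC and its relative MYCN bind DNA as a dimer with MAX, most strongly at the E-box CACGTG, and recruit histone acetyltransferases and elongation factors to growth genes. MXD1, MXD3, MXD4, MXI1 and MNT pair with MAX at the same element and recruit SIN3 and histone deacetylases, which lowers transcription. MGA pairs with MAX inside a Polycomb-type complex that silences germline genes, and MLX pairs with the glucose-responsive MONDO factors and with some of the MXD proteins. In blood cells MYC is known to be high in dividing precursors and to fall as monocytic cells mature, while MXD1 is known to appear during myeloid maturation.

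The samples were 12 Illumina bead arrays of RNA from THP-1, an established line grown from a human monocytic leukaemia. The cells carried a CRISPR construct that was non-targeting (lines NT-2 and NT-3), directed at miR-150 (lines 150-3 and 150-4) or directed at p21, the cyclin-dependent kinase inhibitor encoded by CDKN1A (lines p21-2 and p21-3). Each of the 6 lines was infected with an empty control lentivirus (ECV) or with a lentivirus for KLF4, a zinc finger transcription factor known to promote monocytic maturation. RNA was taken 5 days after infection and 17 days after CRISPR selection, so the controls also carried a CRISPR construct and a virus. There were thus 6 groups of 2 arrays, and this number limits the precision of every comparison. The labels do not state that the lines were separate cultures, so p-values measure only the spread between these samples, which may be technical. They also do not say whether a line is 1 clone or a mixed population.

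Values are the deposited log2 levels, and a level of 7.26 marks the upper edge of background. The pair of arrays from non-targeting lines labelled KLF4 differed most from each other, with a pooled SD of 0.179 over probes against 0.091 to 0.109 in the other groups, so the main results for MYC and MXD1 that rest on them are also given without one. Over all lines KLF4 probe ILMN_1779857 overlapped between the viruses, at 7.56 to 7.87 on arrays labelled KLF4 and 7.62 to 7.97 on arrays labelled ECV. KLF4 probe ILMN_2137789 did not overlap and was lower on arrays labelled KLF4, at 7.43 to 7.69 against 7.70 to 7.95. In miR-150 lines both probes were lower with KLF4, at 7.56 to 7.60 against 7.89 to 7.97 and at 7.53 to 7.63 against 7.71 to 7.95. In p21 lines probe ILMN_1779857 read 7.64 to 7.87 with KLF4 and 7.62 to 7.63 with ECV, while probe ILMN_2137789 read 7.43 to 7.64 and 7.78 to 7.82. Where these probes lie relative to the sequence in the virus is not given, so they do not check the label, and every direction below is between arrays as labelled. CDKN1A probe ILMN_1784602 read 8.88 to 9.11 in p21 lines with ECV and 9.16 to 9.37 in the other lines with ECV. On arrays labelled KLF4 it read 11.08 to 11.37 in p21 lines and 11.66 to 12.48 in the other lines. Edited loci are often still transcribed, so this does not check the edit, and no probe for MIR150 was found. Below, edited lines are those with a construct directed at miR-150 or p21, whether or not the locus was changed.

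The cell type was checked with 12 markers of the monocytic lineage, of which 11 were tested. Among them LYZ, the lysozyme gene, had a mean level of 14.25 with ECV and FCER1G, the Fc receptor gamma chain, one of 12.39. MPO, a granule enzyme of myeloid precursors, and CD14 were near background with ECV, at 7.31 and 7.35. ITGAM and CSF1R were also low with ECV, at 7.98 and 8.29. Of 23 erythroid, megakaryocytic, lymphoid and epithelial markers, 5 were tested, and these lay between 7.0 and 7.48 on every array. The monocytic markers moved with the virus label. Their mean level was 9.75 to 9.94 on ECV arrays and 10.36 to 10.83 on KLF4 arrays, and 7 of 11 rose and 1 fell, where 17.9% of all 12072 genes rose and 22.7% fell. The largest rise was that of ITGAM, the CD11b integrin, by 3.03 log2 (adjusted p = 5e-13), LYZ rose by 0.24 (adjusted p = 0.034), and CEBPA, a myeloid transcription factor, fell by 0.21 on the log2 scale (adjusted p = 0.0251). The part of this shift in the results below was not tested. In bulk RNA, fewer cells of a type and less RNA per cell cannot be told apart.

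Promoter sequence is available in RefSeq GRCh38.p14 windows of 250 bases before to 50 bases after a start, which matched 9 of the 10 genes and 14 starts. The gene without a window was MYC, so its promoter was not searched. MXD1 is shown because it had the largest rise of the network on the array, and a MAX start because it holds the most CACCC boxes, the core of the element that KLF-family factors are known to bind. Both are printed on the gene's strand, 5′ to 3′, with the letters CACCC or GGGTG, the same motif on the other strand, in capitals. The MXD1 window is chr2:69914859-69915158 on the plus strand and the MAX window is chr14:65101635-65101934 on the minus strand.
MXD1: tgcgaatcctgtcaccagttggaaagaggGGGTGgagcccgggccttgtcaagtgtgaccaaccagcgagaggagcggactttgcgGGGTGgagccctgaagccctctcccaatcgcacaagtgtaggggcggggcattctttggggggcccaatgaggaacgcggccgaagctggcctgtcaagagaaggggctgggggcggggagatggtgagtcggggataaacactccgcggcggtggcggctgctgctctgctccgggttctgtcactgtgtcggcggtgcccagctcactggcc
MAX: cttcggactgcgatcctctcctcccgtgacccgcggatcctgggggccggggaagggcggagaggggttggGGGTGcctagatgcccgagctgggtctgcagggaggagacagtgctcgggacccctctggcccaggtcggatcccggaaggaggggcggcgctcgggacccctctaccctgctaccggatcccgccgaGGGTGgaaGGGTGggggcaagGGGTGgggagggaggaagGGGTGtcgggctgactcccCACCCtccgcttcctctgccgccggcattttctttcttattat
The MXD1 window held 2 matches and the MAX window 6, while the other MAX start window, not shown, held 1. At least 1 match was found in 59.9% of 35116 start windows in the table and in 11 of the 14 member windows, and as many as 6 in 0.6% of the table. The MAX window was chosen for its high count, so the 0.6% follows from that choice. A match is a description of the letters only.

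The E-box CACGTG, which reads the same on both strands, was found in 3 of the 14 member windows and in 7.3% of all windows. The 3 are shown because, among the 9 genes with a window, they are those whose own start region holds the element the network binds. MYC had no window. Each stretch has the E-box in capitals and is printed on the gene's strand.
MXD4: gggccgggccacCACGTGctgttgctaagc
MNT: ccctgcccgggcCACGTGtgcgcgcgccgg
MLX: gcgggcgcgggtCACGTGggcacgccaccc
The MXD4 stretch is chr4:2262330-2262359, minus strand, with the E-box 238 bases before the start. The MNT stretch is chr17:2401236-2401265, minus strand, 193 bases before the start, and the MLX stretch is chr17:42567038-42567067, plus strand, 50 bases before the start. None of the tested probes of these 3 genes passed the test for the KLF4 virus, as described below.

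The first comparison asked how the network differed between arrays labelled KLF4 and ECV, averaged over the 3 CRISPR targets. MYC fell about 2-fold, MXD1 rose about 4-fold, one MAX probe rose clearly and others slightly, and the remaining partners moved little. Of the 15 tested probes, 4 were called higher and 3 lower by limma at an adjusted p under 0.05, 7 in all, where 34.1% of all 22296 tested probes were called, 14.7% higher and 19.4% lower. At an unadjusted p under 0.05 the number was 8. The median change was -0.04 over the 15 probes and -0.01 over all probes. In 4 member probes, both of MYC, that of MXD1 and 1 of MAX, the 6 KLF4 arrays did not overlap the 6 ECV arrays, which held for 19.7% of all tested probes, 8.86% in the higher and 10.9% in the lower direction.

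MYC, on chromosome 8, is the DNA-binding activator at the centre of the network. On probe ILMN_1680618, the level with ECV was 11.77 in NT-2, 11.79 in NT-3, 11.60 in 150-3, 11.59 in 150-4, 11.69 in p21-2 and 11.64 in p21-3. With the KLF4 virus the same lines read 10.35, 10.58, 10.62, 10.75, 10.75 and 10.65. All 6 KLF4 arrays were lower than all 6 ECV arrays, and NT-2 was the lowest of them. The group means were 11.68 ± 0.088 (SD, n = 6) and 10.62 ± 0.149 (SD, n = 6), a log2 change of -1.06 (SE 0.054, 95% confidence interval -1.18 to -0.95, adjusted p = 1.7e-09 in limma), or 2.09-fold lower. Among 12072 genes, each read on its brightest tested probe, the change of MYC ranked 19 from the lowest.

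The second MYC probe, ILMN_2110908, gave a like fall. Its ECV levels were 11.01 in NT-2, 11.06 in NT-3, 10.84 in 150-3, 10.99 in 150-4, 11.16 in p21-2 and 11.07 in p21-3, and its KLF4 levels were 9.89, 10.07, 9.61, 9.89, 9.86 and 9.85. The arrays again separated completely by virus, but here the lowest KLF4 array was 150-3 and the highest NT-3. The change was -1.16 (SE 0.0602, 95% confidence interval -1.29 to -1.03, adjusted p = 2.2e-09 in limma), or 2.23-fold lower. MYCN, the neural relative of MYC, was not measurable, with levels of 6.92 to 7.22 over both of its probes and all 12 arrays, none above background.

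**Figure D1:**
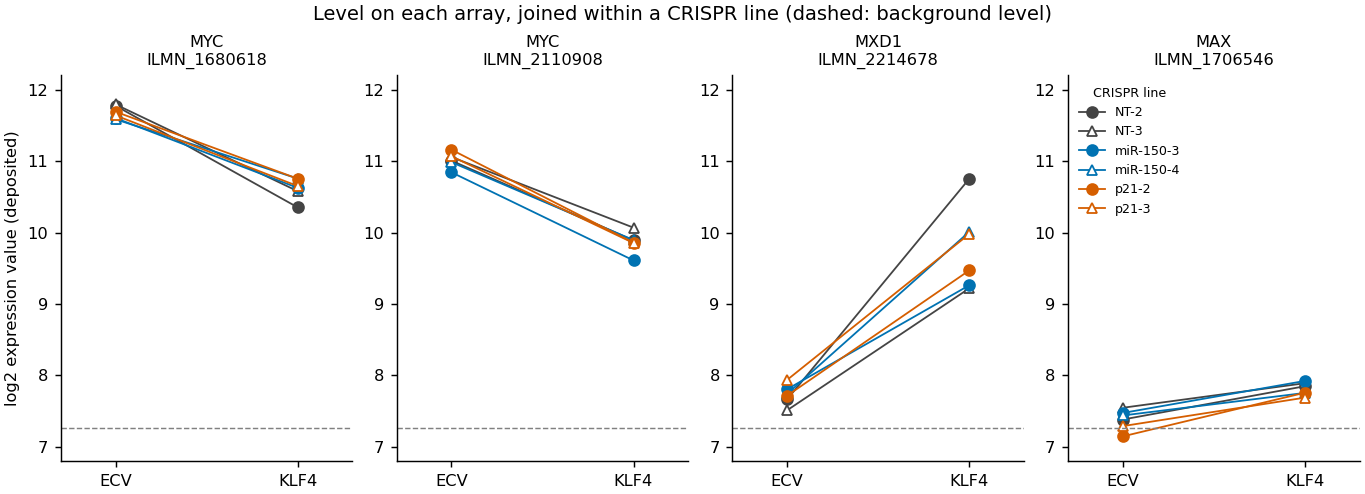
Levels of both MYC probes, MXD1 and MAX probe ILMN_1706546 on the 12 arrays, as deposited log2 values, with each line's ECV and KLF4 arrays joined and the background level of 7.26 dashed. The MYC lines fall from between 10.84 and 11.79 to between 9.61 and 10.75, and the MXD1 lines rise from between 7.51 and 7.94 to between 9.22 and 10.75.

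MAX, the shared partner of MYC and of the repressors, had 4 tested probes that are annotated to different transcripts. Probe ILMN_1706546 read 7.38, 7.54, 7.47, 7.44, 7.14 and 7.29 with ECV in NT-2, NT-3, 150-3, 150-4, p21-2 and p21-3, and 7.85, 7.89, 7.92, 7.75, 7.76 and 7.69 with KLF4. The groups did not overlap, although the ECV values lie close to background and p21-2 was below it. The change was 0.43 (SE 0.0542, adjusted p = 1.9e-05), or 1.35-fold higher. With normexp background correction it was 0.64. Probes ILMN_1802457 and ILMN_2363426 rose by 0.20 (adjusted p = 0.00852) and 0.17 (adjusted p = 0.0204), with overlapping groups, and ILMN_1704236 differed by 0.11 (adjusted p = 0.135). The first of these 3 was higher in 6 of 6 lines and the second in 5 of 6. With 1 line left out, the call of ILMN_1802457 was lost in 2 of 6 settings (change 0.16 to 0.23). That of ILMN_2363426 was lost in 4 of 6 (0.14 to 0.21). The call of ILMN_2363426 was lost without either 150-3 array (adjusted p = 0.0565 without the ECV array and 0.0533 without the KLF4 array), without the p21-2 KLF4 array (0.0575) and without the p21-3 ECV array (0.0712).

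MLX, which pairs with MONDO factors, did not pass the test on either probe. Probe ILMN_2401618 ranged from 7.87 to 8.32 with ECV and from 8.13 to 8.60 with KLF4, a change of 0.13 (adjusted p = 0.229). It was called without the NT-2 ECV array (0.21, adjusted p = 0.0422) or without the NT-3 KLF4 array (0.19, adjusted p = 0.0363). Probe ILMN_1792207 ranged from 7.28 to 7.59 over all arrays and differed by -0.01 (adjusted p = 0.939).

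MXD1, known for replacing MYC on MAX when myeloid cells stop dividing, had the largest change of the network. Its probe ILMN_2214678 read 7.66 in NT-2, 7.51 in NT-3, 7.80 in 150-3, 7.74 in 150-4, 7.71 in p21-2 and 7.94 in p21-3 with ECV. With the KLF4 virus the same lines read 10.75, 9.22, 9.26, 10.01, 9.47 and 9.98. Every KLF4 array was above every ECV array, and the KLF4 arrays were spread over a wider range, with NT-2 highest and NT-3 lowest. The means were 7.73 ± 0.142 (SD, n = 6) and 9.78 ± 0.587 (SD, n = 6). The change was 2.05 (SE 0.198, 95% confidence interval 1.63 to 2.48, adjusted p = 1.4e-06), or 4.15-fold higher, ranking 30 from the highest among 12072 genes. Leaving out any 1 array moved it between 1.80 and 2.31, and the call held each time.

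The other MAX-binding repressors stayed close to their control levels. MXI1, also called MXD2, was tested on 2 probes. Probe ILMN_1794074 ranged from 7.5 to 7.67 with ECV and from 7.33 to 7.51 with KLF4, and was lower in 6 of 6 lines, by -0.15 on average (adjusted p = 0.0363). This call was lost with cyclic loess normalization (adjusted p = 0.0571) and, among the 12 settings that left out 1 array, in 7, where the adjusted p lay between 0.0609 and 0.11. Those 7 left out the ECV array of NT-3, 150-3, 150-4 or p21-2, or the KLF4 array of NT-2, 150-4 or p21-2. With 1 line left out the change lay between -0.19 and -0.12, and the call was lost in 4 of 6 settings. Probe ILMN_1670570 differed by -0.07 (adjusted p = 0.353), and the 2 untested MXI1 probes lay between 6.90 and 7.23.

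MXD3 probe ILMN_1711904 ranged from 7.85 to 8.05 with ECV and from 7.74 to 7.93 with KLF4, and differed by -0.12 (adjusted p = 0.1). MXD4 probe ILMN_1756541 ranged from 8.93 to 9.23 and from 8.81 to 9.09, and also differed by -0.12 (adjusted p = 0.143). Without both NT-3 arrays it was called lower, at -0.18 (adjusted p = 0.0292), and without both NT-2 arrays it differed by -0.06. MNT, the most broadly expressed MAX-binding repressor, ranged from 8.71 to 8.94 with ECV and from 8.56 to 8.85 with KLF4 on probe ILMN_1792910, a difference of -0.10 (adjusted p = 0.248). The groups overlapped for all 3 genes. MGA probe ILMN_2372379 ranged from 7.39 to 8.02 and differed by -0.04 (adjusted p = 0.717), and the other MGA probe was above background on 1 of 12 arrays.

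**Figure D2:**
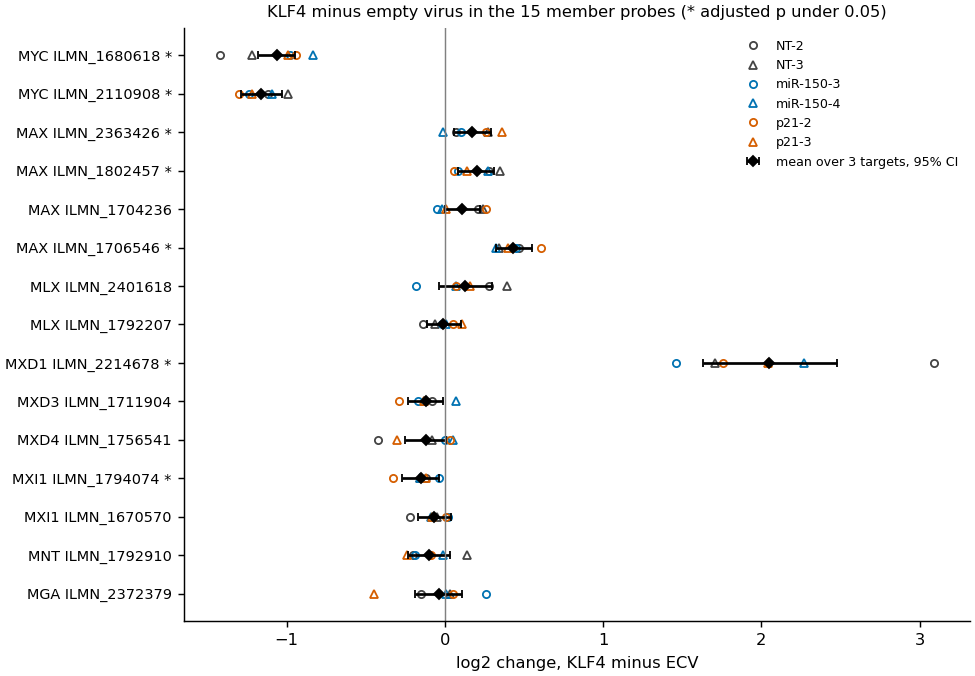
Change between KLF4 and ECV arrays in log2 units for the 15 tested probes. Open symbols are the 6 lines, black diamonds the mean over the 3 targets with its 95% confidence interval, and an asterisk marks an adjusted p under 0.05. MXD1 lies alone at 2.05, both MYC probes lie near -1.1, and the other probes lie between -0.15 and 0.43.

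Within single CRISPR targets the same members led. In non-targeting lines 5 of 15 probes were called, 3 higher and 2 lower, where 20.7% of all tested probes were, 9.41% higher and 11.3% lower. In miR-150 lines 4 were called, 2 each way, against 12.5% of all probes, 6.05% higher and 6.43% lower. In p21 lines 5 were called, 3 higher and 2 lower, against 14.4%, 6.74% higher and 7.67% lower. Both MYC probes, MXD1 and MAX probe ILMN_1706546 were called within each of the 3 targets, and the MXD1 and MAX calls depended on the setting as given below. The fifth probe was MAX ILMN_1802457 in non-targeting lines (0.31, adjusted p = 0.022) and MAX ILMN_2363426 in p21 lines (0.31, adjusted p = 0.0371). The former call was lost with array weights (adjusted p = 0.0598), with the non-targeting arrays alone (0.121), and without the NT-2 ECV array (adjusted p = 0.146) or the NT-3 KLF4 array (0.13), and the latter with normexp (0.0555), with a robust variance trend (0.0517), and without either 150 line's ECV array (0.0542 each), either p21 KLF4 array (0.195 and 0.106) or the p21-3 ECV array (0.285).

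The changes of MYC by line differed between its probes. On ILMN_1680618 the fall was -1.42 in NT-2, -1.22 in NT-3, -0.98 in 150-3, -0.83 in 150-4, -0.94 in p21-2 and -0.99 in p21-3, so both non-targeting lines fell further than the 4 edited lines. On ILMN_2110908 the falls were -1.12, -0.99, -1.24, -1.09, -1.30 and -1.22 in the same order, and the non-targeting lines were among the smaller ones. By target, the first probe changed by -1.32 in non-targeting lines (adjusted p = 3.3e-07; -1.21 without the NT-2 KLF4 array and -1.43 without that of NT-3), -0.90 in miR-150 lines (1.6e-05) and -0.96 in p21 lines (7.9e-06). The second changed by -1.05 (6.2e-06; -0.96 and -1.14 without the same arrays), -1.16 (4.5e-06) and -1.26 (1.7e-06). Non-targeting lines thus had the largest fall on one probe and the smallest on the other.

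MXD1 rose by 3.09 in NT-2, 1.71 in NT-3, 1.46 in 150-3, 2.27 in 150-4, 1.76 in p21-2 and 2.04 in p21-3. By target the rises were 2.40 (SE 0.343, adjusted p = 0.00019), 1.86 (0.00223) and 1.90 (0.0017). The rise in non-targeting lines was 1.63 without the NT-2 KLF4 array and 3.17 without that of NT-3, each from a fit with a single non-targeting KLF4 array. With a robust variance trend the MXD1 calls were lost in miR-150 lines (adjusted p = 0.0711) and p21 lines (0.0599). They were also lost in miR-150 lines without line 150-4 (0.183), and in p21 lines without p21-2 (0.0581) or p21-3 (0.11). The 2 non-targeting lines, like the 2 miR-150 lines, differed from each other by more than the target means did. NT-2 had the largest rise while NT-3 lay within the range of the edited lines. MAX probe ILMN_1706546 rose by 0.47, 0.34, 0.45, 0.32, 0.61 and 0.40 in the same lines. Its call in non-targeting lines was lost with those arrays alone (adjusted p = 0.0547) or without the NT-2 ECV array. In miR-150 lines it was lost without either 150-3 array or the 150-4 ECV array. With 1 line left out, the change lay between 0.34 and 0.47 in non-targeting lines. It lay between 0.32 and 0.45 in miR-150 lines and between 0.40 and 0.61 in p21 lines. The call was lost in 1, 2 and 1 of these 6 settings, in that order of targets.

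**Figure D3:**
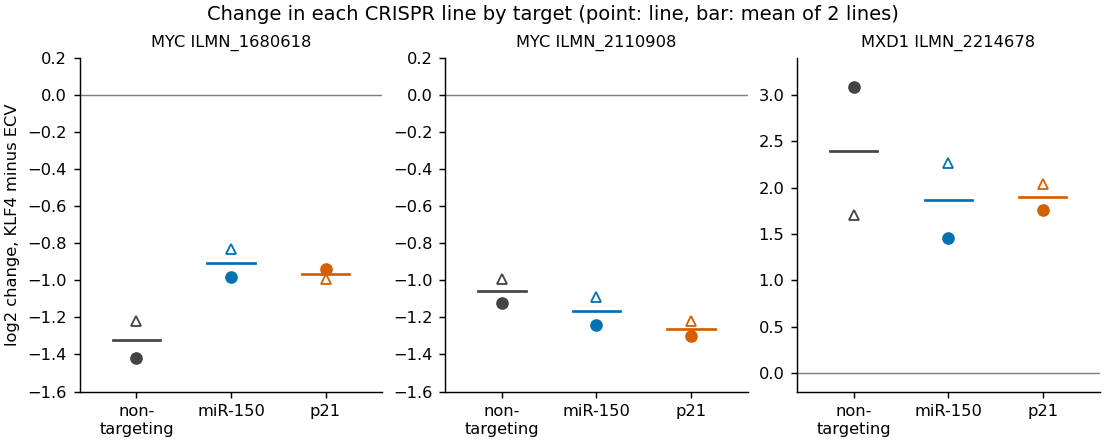
Change between KLF4 and ECV arrays in log2 units for both MYC probes and MXD1, by CRISPR target, with 1 symbol per line and a bar at the mean of 2 lines. MYC probe ILMN_1680618 falls most in non-targeting lines and probe ILMN_2110908 most in p21 lines, and for MXD1 the NT-2 line at 3.09 stands above the other 5 lines.

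Whether the KLF4 effect differed between edited and non-targeting lines was tested as a difference of effects. No member probe was called by limma for miR-150 or for p21, with 1 probe each at an unadjusted p under 0.05, and 0.00449% of all tested probes were called in either comparison. For MYC probe ILMN_1680618 the differences were 0.42 (95% confidence interval 0.13 to 0.70, adjusted p = 0.982) and 0.36 (0.07 to 0.64, adjusted p = 0.849). For probe ILMN_2110908 they were -0.11 (-0.42 to 0.21) and -0.21 (-0.52 to 0.11). For MXD1 they were -0.54 (95% confidence interval -1.57 to 0.50, adjusted p = 0.982) and -0.50 (-1.54 to 0.54, adjusted p = 0.915). The MXD1 differences rested on 1 array each way. Without the NT-3 KLF4 array they were -1.30 and -1.27, and without the NT-2 KLF4 array 0.23 and 0.27. Such a fit has 1 array in the non-targeting KLF4 group, which then adds nothing to the spread, so no p-value is given here. With both arrays that group had an SD of 1.086 for MXD1, against 0.047 to 0.529 in the other groups. The MYC difference of 0.42 became 0.53 without the NT-3 KLF4 array. Leaving that array out also raised the number called among all 22296 probes.

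Comparing edited with non-targeting lines under the same virus gave no called member either. With ECV the numbers at an unadjusted p under 0.05 were 0 for miR-150 and 2 for p21, with 0.0% and 0.00449% of all tested probes called. With KLF4 they were 4 and 2, with 0.0% and 0.0404% called. The smallest adjusted p of a member was 0.415, in p21 lines with KLF4. With KLF4 and without its NT-3 array, the MXD1 differences were -1.12 for miR-150 and -1.03 for p21. Without its NT-2 array they were 0.42 and 0.51. Without the NT-3 KLF4 array, calls rose both among members and among all 22296 probes. These fits again have 1 array in the non-targeting KLF4 group. Data were simulated with 1 spread per probe for all 6 groups. There the test of a difference of effects for p21 recovered 0% of probes changed by 0.5 log2 and 83.5% of those changed by 1. The non-targeting KLF4 arrays were more spread than other groups, with a pooled SD of 0.179 against 0.091 to 0.109. These rates thus hold for the simulated setting only.

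The genes around the network were read through lists of named genes, each gene on its brightest tested probe. These lists too were chosen with earlier results of these data known. For the mean effect of the KLF4 virus, 40.6% of all 12072 genes were called, 17.9% higher and 22.7% lower, and the median change of all genes was -0.01. Genes that MYC is known to induce, outside the nucleolus, were mostly lower: of 38 tested genes out of 40 listed, 29 fell and 2 rose, with a median of -0.42. The fall included PRMT1, a protein arginine methyltransferase (-1.02, 2.03-fold, adjusted p = 3.5e-09), CDCA7L, a MYC-interacting protein (-0.90, adjusted p = 3e-08), and RCC1, the chromatin-bound exchange factor for Ran (-0.72, adjusted p = 1.2e-07, and -0.21 on its other tested probe). SLC3A2, the heavy chain of amino acid transporters, and MTHFD2, a mitochondrial folate enzyme, rose by 0.42 (adjusted p = 0.00021) and 0.34 (adjusted p = 0.0043). EIF4A1, a translation initiation helicase, differed by 0.05 (adjusted p = 0.472), while its other tested probe read -0.41. The median of the 38 was -0.75 in NT-2, -0.39 in NT-3, -0.31 in 150-3, -0.37 in 150-4, -0.29 in p21-2 and -0.33 in p21-3, so NT-2 stood apart. With KLF4, NT-2 also had the highest MXD1 and the lowest MYC on probe ILMN_1680618. On MYC probe ILMN_2110908 it read 9.89, above 150-3 at 9.61. NT-2 stood apart in the monocytic markers too, with a median of 0.73 against 0.23 to 0.40 in the other lines. In genes that MYC represses its median was 0.08, below 0.17 in 150-3.

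Genes that MYC is known to repress did not move as a block. Of 15 tested, 4 rose and 2 fell, with a median of 0.03, where 17.9% of all genes rose and 22.7% fell. CDKN1A rose by 2.58 (5.96-fold, adjusted p = 4.5e-10). This mean includes the p21 lines, whose construct is directed at that gene. With KLF4 it read 11.08 to 11.37 in p21 lines and 11.66 to 12.48 in the other lines. KLF6, a relative of KLF4, rose by 0.63 (adjusted p = 1e-05) and HBP1, a repressor of cell cycle genes, by 0.47 (adjusted p = 0.00074). CEBPA, a myeloid transcription factor that is also among the monocytic markers, and NDRG1, a stress-response gene, fell by 0.21 and 0.22 on the log2 scale (adjusted p = 0.0251 and 0.0255). The number lower was 0 with cyclic loess and 0 without the NT-2 ECV, the 150-4 KLF4 or the p21-2 ECV array, and 1 without the 150-3 ECV, 150-4 ECV, p21-2 KLF4 or p21-3 KLF4 array.

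The factors that the network recruits were set against all genes, of which 40.6% were called, 17.9% higher and 22.7% lower, with a median of -0.01. Of 17 co-activators of MYC, 8 fell and 2 rose, with a median of -0.12. KAT2A, a histone acetyltransferase, fell by 0.67 on the log2 scale (adjusted p = 5.6e-06) and RUVBL2, a helicase of chromatin complexes, by 0.48 (adjusted p = 2.6e-05). KAT2B, the paralogue of KAT2A, rose by 0.45 (adjusted p = 2.4e-05), although its other tested probe read -0.14, and KAT5, another acetyltransferase, rose by 0.17 (adjusted p = 0.0314, and 0.05 on its other tested probe). The count higher was 1 without the NT-3 ECV, 150-3 KLF4, 150-4 ECV, p21-3 ECV or p21-3 KLF4 array. Of 13 co-repressors used by the MXD proteins and MNT, 5 fell and none rose, with a median of -0.08, among them ING2, a chromatin reader (-0.41, adjusted p = 0.0003), and the deacetylases HDAC2 (-0.33, adjusted p = 0.00026, and -0.13 on its other tested probe) and HDAC1 (-0.25, adjusted p = 0.00114). The 5 called of 13 co-repressors were near the 40.6% called among all genes. With cyclic loess 3 co-repressors fell and 1 rose. The number that fell was 3 without the ECV array of NT-2, 150-4 or p21-3 or the KLF4 array of 150-4 or p21-3, and 1 rose without the KLF4 array of NT-2 or NT-3.

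Of 12 tested partners of MGA in its Polycomb-type complex, which also include HDAC1 and HDAC2, 8 fell and 2 rose, with a median of -0.25. Among all genes 22.7% fell and 17.9% rose. PCGF6, the subunit that defines the complex, fell by 0.38 on the log2 scale (adjusted p = 6.6e-05). WDR5, a histone methylation reader shared with the co-activator list, fell by 0.40 (adjusted p = 0.00015), while its other tested probe read 0.01. TFDP2, the dimer partner of E2F factors, rose by 0.19 (adjusted p = 0.00539, and 0.02 on its other tested probe) and RING1, a ubiquitin ligase, by 0.13 (adjusted p = 0.0469). The number higher was 1 with the CRISPR line as a replicate block, with normexp, with a stricter filter, with a robust variance trend and with array weights. It was also 1 in 11 of the 12 settings that left out 1 array, all but that without the 150-3 ECV array. Of the 4 germline genes of this complex that could be tested, TDRD1, SMC1B, STAG3 and SYCE2, none was called, with changes from -0.09 to 0.14. One was called higher without the NT-3 KLF4 array.

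Genes that act on MYC transcript or protein turnover moved in both directions, with 8 of 24 lower, 3 higher and a median of -0.07. Among all genes 22.7% were lower and 17.9% higher. SKP2, a ubiquitin ligase subunit that targets MYC and other cell cycle proteins, fell by 0.70 on the log2 scale (adjusted p = 2.9e-05) on the brightest of 3 tested probes, which ranged from -0.70 to -0.16, and MYCBP2, another ubiquitin ligase, by 0.55 (adjusted p = 2e-05). PPP2R5A, a phosphatase subunit, rose by 0.62 (adjusted p = 3.1e-07), and the kinases GSK3B and AURKA rose by 0.23 (adjusted p = 0.00483) and 0.22 (adjusted p = 0.00452). The count lower was 5 without the p21-3 KLF4 array. With cyclic loess 5 were higher.

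Targets of the MLX and MONDO pair split. TXNIP, the thioredoxin-binding protein and best known target, rose by 1.02 (2.03-fold, adjusted p = 6.4e-09), and KLF10, a KLF-family factor, by 0.22 (adjusted p = 0.00671, and 0.07 on its other tested probe). The enzymes of fatty acid synthesis FASN, ACACA and ACLY fell by 0.85 (adjusted p = 1.4e-07), 0.78 (adjusted p = 4.7e-08) and 0.22 (adjusted p = 0.032) on the log2 scale. These were 5 of the 6 tested genes, with a median of -0.10, where 40.6% of all genes were called. Among 4 other factors of the same DNA-binding family, USF1, an E-box activator, was called, at 0.20 (adjusted p = 0.011, and 0.12 on its other tested probe). USF2, its partner, differed by 0.23 (adjusted p = 0.0516) and as little as 0.08 on another probe. The count higher among these 4 was 2 with cyclic loess, a stricter filter, a robust variance trend, array weights or the line as a random block, 2 without the NT-3 ECV or p21-3 KLF4 array and 3 without the NT-3 KLF4 array.

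**Figure D4:**
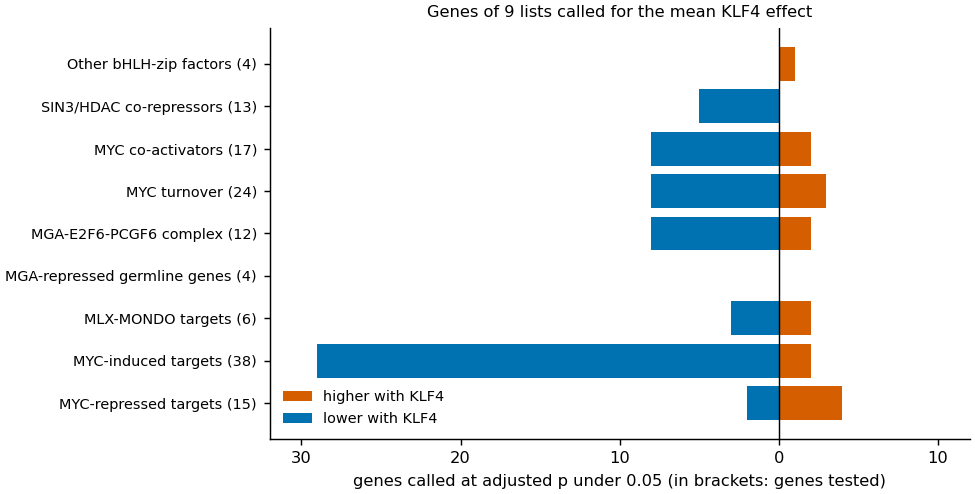
Numbers of genes called higher (right) or lower (left) on arrays labelled KLF4 in 9 lists, each gene on its brightest tested probe, with the number tested in brackets. MYC-induced genes have 29 lower and 2 higher of 38, against 22.7% lower and 17.9% higher among all genes.

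The genes whose levels followed each called member most closely over the 12 arrays are given as a description, since the arrays form 2 clusters by virus, and values within each virus are given for several of them. For MYC the highest Pearson correlations were with EPOP (0.995), SLC39A3 (0.992), ZNF22 (0.991), MTURN (0.99) and RCN1 (0.99). Within the 6 ECV and the 6 KLF4 arrays, EPOP gave 0.92 and 0.91, whereas ZNF22 gave 0.38 and 0.91. The lowest were FPR1, a formyl peptide receptor of phagocytes (-0.993), TM4SF19 (-0.991), WBP1L (-0.991), SLC35F6 (-0.99) and TREML2 (-0.989), and FPR1 gave -0.78 and -0.84 within the viruses. MXD1 correlated most with F5, CEACAM1 and DDX60L (0.996, 0.995 and 0.994), at 0.52, 0.43 and 0.29 within ECV and 0.99, 0.99 and 0.98 within KLF4. MYC and MXD1 correlated at -0.956 over all arrays, at -0.74 within ECV and at -0.56 within KLF4. In the same order MXD1 and MXI1 gave -0.81, -0.36 and -0.45. The other pairs of called members changed sign within a virus. MYC and MAX gave -0.667, -0.30 and 0.54, and MAX and MXD1 gave 0.515, -0.34 and -0.93. MYC and MXI1 gave 0.768, 0.26 and -0.06, and MAX and MXI1 gave -0.556, -0.24 and 0.31. MAX, on probe ILMN_2363426, followed FOXD1, GZMA and DBI (0.88, 0.877 and 0.874), at 0.88, 0.85 and 0.97 within ECV and 0.76, 0.91 and 0.71 within KLF4. MXI1 followed PAK4, ASPHD1 and SLC25A22 (0.952, 0.935 and 0.926), at 0.91, 0.96 and 0.82 within ECV and 0.75 to 0.96 within KLF4.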

How the data were processed

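Total RNA from 12 THP-1 samples was extracted with Trizol and the Qiagen miRNEasy kit and labelled as biotin cRNA for Illumina arrays, per the labels. The authors deposited log2 expression values for 47323 probes, which run from 6.69 to 14.8. All arrays have a median of 7.17, and their quartiles differ by at most 0.0009. Normalization and background removal were steps not given in the sources used here. Another deposited table, of raw values, was not used, since its 24 column names could not be matched to samples.

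A probe was tested when it exceeded 7.26, the 95th percentile of a background made by mirroring the values below the mode of 7.09, on at least 2 arrays, which kept 22296 probes. This replaced a filter on detection p. Probes were named by the platform annotation with symbols brought up to date from RefSeq: 30113 probes had 1 symbol, 8 several and 17202 were not listed, and 30074 matched the gene table. Of 60 list genes with several tested probes, 11 had probes that differed in sign.

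The main test was limma (3.58.1, R 4.3.3; lmFit, then eBayes) with 1 mean for each of 6 groups, which leaves 6 residual degrees of freedom, and Benjamini-Hochberg adjustment ran over all tested probes in each of 10 comparisons. Figures used matplotlib 3.10.9 under Python 3.11.15. In simulated data with 200 changed probes of 22296, the mean effect was recovered in 40% of probes changed by 0.25 log2, 95% by 0.5 and 100% by 1, and the effect in non-targeting lines in 0%, 45.5% and 97.5%. The simulation gave each probe 1 spread for all groups. In the data 34.1% of probes were called for the mean effect, so these rates hold for the simulated setting only.

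The labels give an ECV and a KLF4 array for each CRISPR line, so lines pair the samples. After subtraction of group means, the arrays of a line correlated at 0.0736 (non-targeting), -0.0405 (miR-150) and 0.0637 (p21) over probes. The fit had no block, and the line as a block was an alternative, beside other background, normalization, filter, probe and variance settings and leaving out each array. Leaving out both arrays of a line was added after seeing the data. Leaving out an array or a line leaves a single array in each group it touches. Such a group adds nothing to the spread, so p-values of those fits rest on the spread of the other groups.

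All member probes are reported, and from each list the 3 genes with the smallest p in each direction where they bear on the account. Likeness took 5 genes each way for MYC and 3 for other called members. The members and lists were chosen with earlier results of these data known.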

Additional observations from a re-analysis of the deposited data

Results flagged for a closer look

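In 45 sets of 6 lines, each the levels or changes of 1 tested probe, the highest or lowest line was set against the others, and 2 stood apart by Dixon's criterion. Chance marks about 1 in 20 such sets, and the 6 lines of a set span 3 CRISPR targets. The MLX probe ILMN_2401618 with the KLF4 virus read 8.60 in NT-2 and 8.13 to 8.29 in the other 5 lines, where the gap made up 0.657 of the range. The MXD3 probe ILMN_1711904 with the KLF4 virus read 7.93 in 150-4 and 7.74 to 7.81 in the other 5 lines, with a ratio of 0.642.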

How the results depend on the processing

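The mean KLF4 effect on MYC lay between -1.1 and -1.0 on its brightest probe over 9 other settings, 12 with 1 array and 6 with 1 line left out, and kept its call in each; with the CRISPR line as a replicate block it was -1.06 (adjusted p = 2.4e-08). Pairing by that block changed no other call for the mean effect on a member, and moved the non-targeting count from 5 to 6. With 1 probe per gene, the brightest, 4 genes were called for the mean effect, 2 in each of the non-targeting and miR-150 comparisons and 3 in that of p21, by construction from fewer probes. A variance trend with robust estimation gave 3 in p21 lines, where MXD1 was lost (adjusted p = 0.0599, and 0.0711 in miR-150 lines), and the non-targeting arrays alone gave 3. Leaving out 1 array gave 5 to 8 called for the mean effect, 4 to 5 for non-targeting lines, 3 to 4 for miR-150 and 4 to 5 for p21. Leaving out a line gave 4 to 7, 3 to 5, 2 to 4 and 2 to 5. For the difference of effects these settings gave 0 to 2 (miR-150; 0 to 1 by line) and 0 to 1 (p21), and with KLF4 against non-targeting lines 0 to 3 and 0 to 2, the highest without the NT-3 KLF4 array. By line, cyclic loess gave -0.89 for MYC in p21-2 and -0.94 in p21-3, and normexp 2.13 and 2.37 for MXD1. Signs turned only near 0 or with NT-2 or 150-3 left out: MLX ILMN_1792207 read 0.01 with cyclic loess and -0.03 to 0.01 with an array or line left out, MGA -0.12 to 0.04, MAX ILMN_2363426 in miR-150 lines -0.01 to 0.1, and MYC ILMN_2110908 -0.25 to 0.03 for the miR-150 difference. The MXD1 differences, -0.54 and -0.50 between effects, ran from -1.3 and -1.27 without the NT-3 KLF4 array to 0.23 and 0.27 without that of NT-2 (0.16 and 0.19 without the line). Those with KLF4, -0.35 and -0.26, ran from -1.12 and -1.03 to 0.42 and 0.51, and the first was 0.02 without the 150-3 KLF4 array or line. The cause was not tested. All tested probes called for the mean effect numbered 5011 to 7719 under other settings, against 7598. Dim probes near 7.26 limit MAX ILMN_1706546, MXI1, MLX ILMN_1792207 and MGA.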
